A study of Arabidopsis thaliana with 8 samples.

Results

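NAS4, FRO3 and ZIF1 are 3 iron-homeostasis genes of Arabidopsis thaliana that the study's paper names as direct targets of the transcription factor POPEYE (PYE). They were taken by array row, and each row's ID is written here after the array's name, ATH1, and a point: NAS4 (AT1G56430) is read by ATH1.259632_at, FRO3 (AT1G23020) by ATH1.264751_at and ZIF1 (AT5G13740) by ATH1.250248_at, 3 of the 22810 probe sets on the array. The platform annotation used here names none of the 3 rows, so the pairing of row and gene is that given for the study, and the gene table used here lists all 3 loci under these symbols. Whole-root RNA of ecotype Columbia, 7 days after germination, was compared in 4 groups of 2 arrays: pye-1 without iron, pye-1 with iron, wild type (WT) without iron and WT with iron. All roots had first grown on standard medium holding ferric EDTA and sucrose, and were then moved for 24 h to +Fe medium or to a medium whose iron was replaced by ferrozine at 0.3 mM, which binds ferrous iron (-Fe). Each array was hybridised with RNA of about 320 pooled roots, cut 0.5 mm below the hypocotyl, and the labels call the 2 arrays of a group biological replicates. The labels do not describe the nature of the pye-1 lesion. RNA of all root tissues was pooled, so a change in the number of cells of one type cannot be told apart from a change in RNA per cell.

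The products of these genes handle iron and zinc inside the plant. Nicotianamine synthases such as NAS4 join molecules of S-adenosylmethionine into nicotianamine, a small chelator that keeps ferrous iron, zinc and copper soluble in the cytosol and during transport through the vascular tissue. FRO3 belongs to the family of ferric chelate reductases, which pass electrons from NADPH to ferric iron, and has been placed in mitochondria and linked to the vasculature of the root. ZIF1 is a transporter of the vacuolar membrane that moves nicotianamine into the vacuole, where zinc is then held back in the root. PYE, of the basic helix-loop-helix family, is induced in the root pericycle by iron shortage and is known as a repressor of genes of this kind. Whether levels on these arrays entered the paper's choice of the 3 genes is not established here, so their shared direction is not independent support for that choice.

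On each array the values are MAS5 signals in linear units, scaled by the authors to a common mean, and the control level used here was the brightest of 27 probe sets for bacterial transcripts, taken as not spiked (11.7 to 23.7 signal units over the 8 arrays). All readings of NAS4, FRO3 and ZIF1 lay above it, the closest being NAS4 on WT +Fe replicate 2 at 3.95 times the level. Median signal was 91.5 to 97.6. Signal for 25S ribosomal RNA was 1691 to 4047 on arrays numbered 2 and 242 to 565 on those numbered 1, and its part in the results was not tested. Control probe sets at the tail end of a transcript were also set over those at its start. That ratio was 1.28 to 1.58 for GAPDH, 2.60 to 3.42 for ubiquitin and 25.8 to 40.4 for actin, and its part was not tested either. Of the 10 root markers fixed, the root hair expansins EXPA7 and EXPA18 had a named probe set, at 408 to 709 and 286 to 704. Of the 8 green tissue markers, RCA, LHCB4.1 and PSAN did, at 209 to 345, 264 to 447 and 82.6 to 174, so these photosynthesis transcripts were measurable in the root RNA. The summed green marker signal was 566 to 629 in pye-1 -Fe, 750 to 802 in pye-1 +Fe, 647 to 674 in WT -Fe and 888 to 920 in WT +Fe, and the summed root marker signal was 694 to 885, 922 to 1089, 751 to 828 and 1056 to 1413 in the same order of groups. Both sums were lower without iron in each genotype, where the 3 targets were higher. EXPA18 and PSAN fell in WT, each by 0.93 on the log2 scale (limma adjusted p = 0.0310 and 0.0372). EXPA7, RCA and LHCB4.1 had WT responses of -0.39, -0.36 and -0.37, none called. In pye-1 the iron responses of EXPA18 and PSAN were -0.58 and -0.76, which passed only with the replicate block (limma adjusted p = 0.261 and 0.103, and 0.0160 and 0.0304 with the block). Of the 15922 probe sets tested, 66 were called lower without iron in WT, or 235 with the block. In pye-1 the counts were 32 and 153. The green sum was also lower in pye-1 than in WT on each medium, but no green marker was called between the genotypes. Differences without and with iron were -0.24 and -0.45 for LHCB4.1, -0.10 and -0.01 for RCA, and 0.07 and -0.10 for PSAN. The part of these markers in the results was not tested.

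PYE itself read 25 and 28.2 in pye-1 -Fe, 19.1 and 15.0 in pye-1 +Fe, 138 and 149 in WT -Fe and 56.7 and 65.1 in WT +Fe. Thus PYE was lowest in the 2 mutant groups. By group mean, NAS4, FRO3 and ZIF1 were each highest in pye-1 -Fe, next in WT -Fe, then in pye-1 +Fe and lowest in WT +Fe. The PYE readings in pye-1 were only 1.02 to 2.42 times the control level, so PYE differences and correlations that use them are of uncertain size.

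NAS4 read 868 and 706 in pye-1 -Fe, 131 and 197 in pye-1 +Fe, 383 and 427 in WT -Fe and 110 and 93.7 in WT +Fe. No 2 groups of NAS4 overlapped, but the pye-1 +Fe arrays differed by 1.5-fold between themselves, and replicate 1 of that group lay close to the WT +Fe arrays. FRO3 read 2633 and 3305 in pye-1 -Fe, 423 and 443 in pye-1 +Fe, 1448 and 1860 in WT -Fe and 420 and 308 in WT +Fe. Here the 2 groups with iron met, with 423 in pye-1 replicate 1 and 420 in WT replicate 1, so their order is not beyond the spread. ZIF1 read 1181 and 1409 in pye-1 -Fe, 297 and 410 in pye-1 +Fe, 581 and 670 in WT -Fe and 235 and 212 in WT +Fe. As for NAS4, the widest gap inside a ZIF1 group was that of pye-1 +Fe, at 1.38-fold, with replicate 2 the higher array in both genes. As log2 signal, the pye-1 -Fe group averaged 9.61 ± 0.21 for NAS4, 11.53 ± 0.23 for FRO3 and 10.33 ± 0.18 for ZIF1, against 8.66 ± 0.11, 10.68 ± 0.26 and 9.29 ± 0.15 in WT -Fe (SD, n = 2 each). Levels of different probe sets are not set against each other, because each has its own probes.

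**Figure D1:**
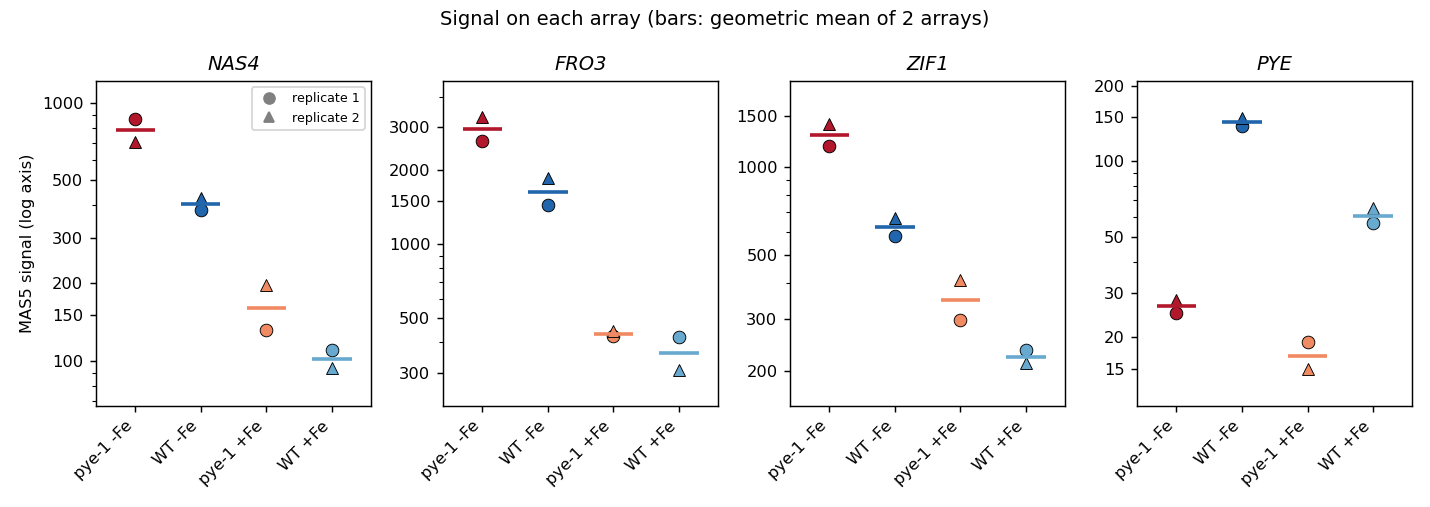
MAS5 signal (log axis, each panel with its own range) of NAS4, FRO3, ZIF1 and PYE on each of the 8 arrays, by group. Circles are replicate 1, triangles replicate 2 and bars the geometric mean of the 2 arrays. By group mean the 3 targets step down through pye-1 -Fe, WT -Fe, pye-1 +Fe and WT +Fe, whereas PYE is lowest in the pye-1 groups. For FRO3 the 2 groups with iron meet, so their order is not beyond the spread.

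The comparison of pye-1 with WT without iron asks how these genes stand when PYE is disrupted at the time it is normally induced. ZIF1 rose, by a log2 difference of 1.05 ± 0.18 (SE), a 2.07-fold difference with a 95% interval of 1.58 to 2.71 (limma adjusted p = 0.0316). NAS4 had a difference of 0.95 ± 0.20, 1.94-fold with an interval of 1.41 to 2.65, and did not pass the threshold of 0.05 (adjusted p = 0.109). FRO3 had a difference of 0.85 ± 0.18, 1.80-fold with an interval of 1.36 to 2.38, and did not pass either (adjusted p = 0.113). With replicate number as a block in the fit all 3 passed, with adjusted p = 0.00112 for ZIF1, 0.0193 for NAS4 and 0.0158 for FRO3.

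So 1 of the 3 genes was called higher in pye-1 -Fe, or all 3 with the block, while 0.327% of the 15922 probe sets tested were called higher, or 0.999% with the block. In all 3 genes both pye-1 -Fe arrays lay above both WT -Fe arrays, as did 15.8% of the tested probe sets. Within a replicate number, where there is 1 array per group and no test, ZIF1 was 2.03-fold and 2.10-fold higher in pye-1, FRO3 1.82-fold and 1.78-fold, and NAS4 2.26-fold and 1.65-fold, in replicates 1 and 2. Among all tested probe sets sorted from the highest difference, ZIF1 stood at place 91, NAS4 at 121 and FRO3 at 169. PYE stood last, at place 15922, with a difference of -2.44 ± 0.27 (limma adjusted p = 0.00311), and its pye-1 -Fe readings were 1.29 and 2.42 times the control level.

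The ZIF1 call rests on a p close to the threshold. Its difference stayed between 0.92 and 1.18 when 1 array was left out, but it passed only in the fits without pye-1 +Fe replicate 1 or 2. Adjusted p was 0.0907 and 0.246 without pye-1 -Fe replicate 1 or 2, 0.338 and 0.111 without WT -Fe replicate 1 or 2, and 0.0517 and 0.0506 without WT +Fe replicate 1 or 2. NAS4 passed without pye-1 +Fe replicate 1 or 2 (adjusted p = 0.0358 and 0.0363), the arrays whose readings lay furthest apart, and its difference ran from 0.80 to 1.10 over the 8 fits. FRO3 passed in none of the 8, with differences of 0.67 to 1.03.

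**Figure D2:**
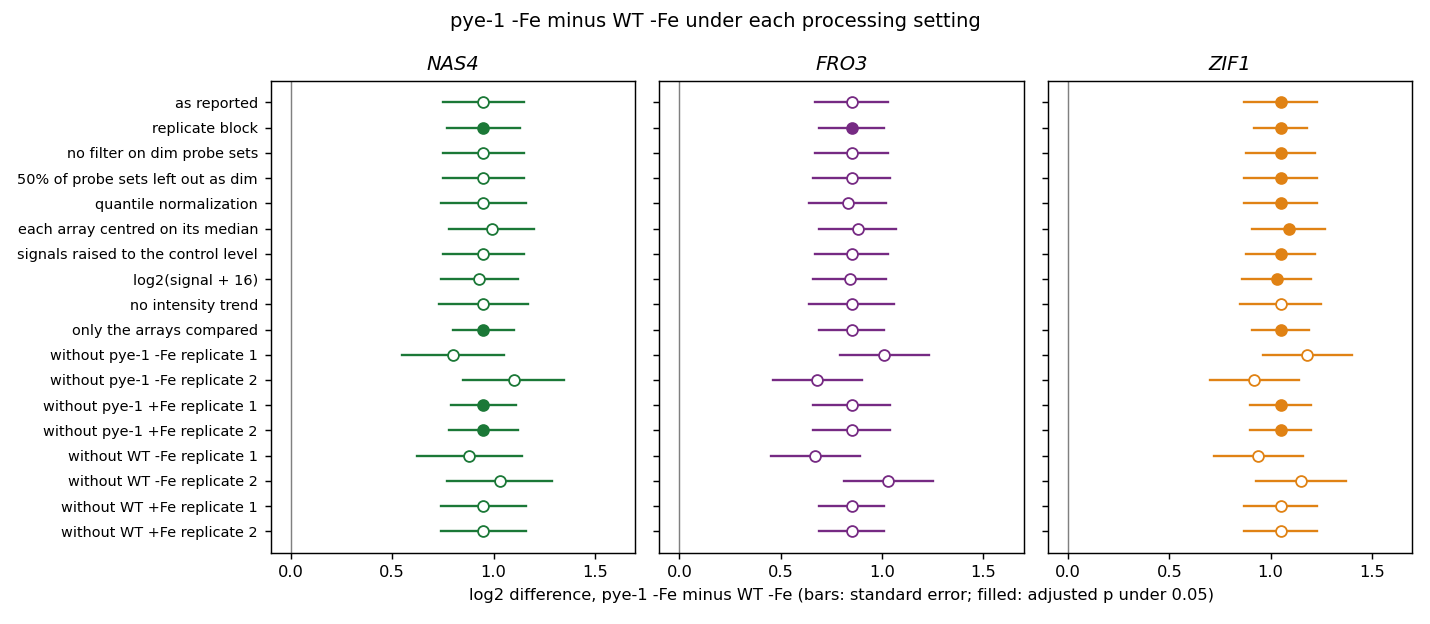
Log2 difference between pye-1 -Fe and WT -Fe for NAS4, FRO3 and ZIF1 under the reported fit and each alternative. Points are estimates, bars the standard error of the fit, and filled points have an adjusted p under 0.05. The estimates stay between 0.67 and 1.18, while the calls change from fit to fit.

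With iron present, the same comparison asks whether the genes already differ in iron-fed roots. None of the 3 passed. NAS4 had a difference of 0.66 ± 0.20, 1.58-fold (limma adjusted p = 0.653), ZIF1 of 0.64 ± 0.18, 1.56-fold (adjusted p = 0.531), and FRO3 of 0.27 ± 0.18, 1.20-fold (adjusted p = 0.980). With the block the adjusted p was 0.190, 0.0697 and 0.610 in the same order. The 95% intervals, before adjustment over probe sets, ran from 1.16-fold to 2.17-fold for NAS4, from 1.19-fold to 2.04-fold for ZIF1 and from 0.908-fold to 1.60-fold for FRO3. The 2 replicate numbers gave unequal values. In replicate 1, pye-1 over WT was 1.19-fold for NAS4, 1.26-fold for ZIF1 and 1.01-fold for FRO3, and in replicate 2 it was 2.10-fold, 1.93-fold and 1.44-fold. Without pye-1 +Fe replicate 2 the differences of NAS4 and ZIF1 were 0.37 and 0.41, and without pye-1 +Fe replicate 1 they were 0.96 and 0.88. Of all tested probe sets, 0.0502% were called higher in this comparison, 0.170% with the block, and 17.2% had both pye-1 arrays above both WT arrays, a condition that all 3 genes met, FRO3 barely.

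The response of pye-1 roots to 24 h without iron was measured next. All 3 genes rose. FRO3 was 6.81-fold higher without iron (log2 difference 2.77 ± 0.18, limma adjusted p = 3.63e-05), NAS4 4.87-fold (2.28 ± 0.20, adjusted p = 2.66e-04) and ZIF1 3.70-fold (1.89 ± 0.18, adjusted p = 3.32e-04). Of all probe sets tested, 0.848% were called higher, or 1.69% with the block, and 14.0% had both -Fe arrays above both +Fe arrays. FRO3 stood at place 21, NAS4 at 34 and ZIF1 at 48 of the 15922 when sorted from the highest response. The responses in replicates 1 and 2 were 6.22-fold and 7.46-fold for FRO3, 6.61-fold and 3.59-fold for NAS4, and 3.98-fold and 3.44-fold for ZIF1, so NAS4 was the least even of the 3.

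WT roots gave the same direction. FRO3 rose 4.56-fold (2.19 ± 0.18, limma adjusted p = 1.89e-04), NAS4 3.98-fold (1.99 ± 0.20, adjusted p = 6.89e-04) and ZIF1 2.79-fold (1.48 ± 0.18, adjusted p = 0.00180). Here 0.559% of probe sets were called higher, 1.57% with the block, and 18.8% had both -Fe arrays above both +Fe arrays. Their places were 31, 38 and 62. In replicate 1 the response was 3.45-fold for FRO3, 3.49-fold for NAS4 and 2.47-fold for ZIF1, and in replicate 2 it was 6.03-fold, 4.56-fold and 3.15-fold. PYE had a WT response of 1.24 ± 0.27, 2.37-fold (adjusted p = 0.0819, and 0.0384 with the block). In both genotypes the 3 responses passed under every alternative run, including each of the 8 fits without 1 array, with adjusted p of at most 0.00819 in pye-1 and 0.0315 in WT.

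**Figure D3:**
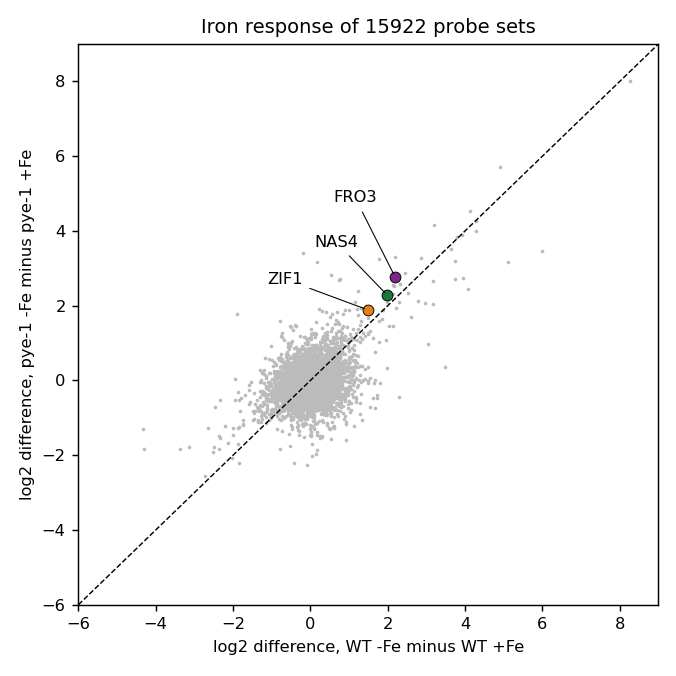
Log2 difference without against with iron in WT (x axis) and in pye-1 (y axis) for the 15922 tested probe sets (grey), which share no array between the axes. NAS4, FRO3 and ZIF1 are marked, and the dashed line is equality. All 3 lie slightly above the line, at 2.28 against 1.99, 2.77 against 2.19 and 1.89 against 1.48, and the interaction test did not pass for any of them.

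Whether the iron response is larger in pye-1 than in WT is the interaction of genotype and medium. It was 0.58 ± 0.26 for FRO3, 0.41 ± 0.25 for ZIF1 and 0.29 ± 0.29 for NAS4, with limma adjusted p of 0.862, 0.914 and 0.952, and with the block 0.357, 0.453 and 0.723. None was called, where 0.0502% of all probe sets were called higher, or 0.251% with the block. As a ratio of the 2 responses the 95% intervals were 1.00 to 2.23 for FRO3, 0.904 to 1.94 for ZIF1 and 0.785 to 1.90 for NAS4, so for ZIF1 and NAS4 an equal response in the 2 genotypes lies within the error, and so does one 1.90 times as large in pye-1. In replicate 1 the ratio was 1.80, 1.61 and 1.90 for FRO3, ZIF1 and NAS4, and in replicate 2 it was 1.24, 1.09 and 0.787. NAS4 thus differed in sign between the replicate numbers, and its interaction was -0.0026 without pye-1 +Fe replicate 1.

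**Figure D4:**
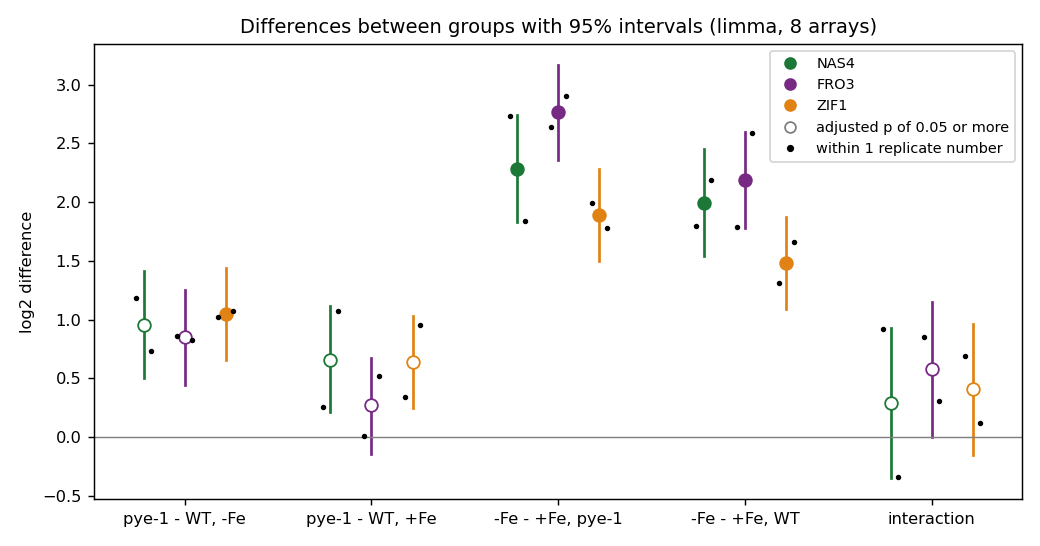
Log2 differences of NAS4, FRO3 and ZIF1 in the 4 comparisons and the interaction, with 95% intervals of the limma fit. Filled points passed at an adjusted p under 0.05, and black dots are the values within replicate 1 (left) and replicate 2 (right). The 6 iron responses are filled, the pye-1 difference is filled for ZIF1 without iron, and the rest are open.

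The 3 profiles were alike over the 8 arrays. The log2 signals correlated at r = 0.973 between NAS4 and FRO3, 0.985 between NAS4 and ZIF1 and 0.964 between FRO3 and ZIF1, with the same 8 arrays, scaling and group means behind each value. The correlation mostly follows the step from +Fe to -Fe. PYE correlated at 0.0333 with NAS4, 0.175 with FRO3 and -0.0672 with ZIF1. Of the 15919 other tested probe sets, 23 correlated above 0.95 with NAS4, 50 with FRO3, 20 with ZIF1 and 33 with the mean of the 3 standardised profiles.

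The genes named next were picked for their correlation with the targets over these same 8 arrays. A like order of groups or a like difference between genotypes is favoured by that choice, though not fixed by it. The values are given as a description, with no test. Among named genes, the closest to that mean was BHLH101 (r = 0.987 over 8 arrays), which encodes a bHLH factor that acts under iron shortage. It read 959 and 849 in pye-1 -Fe, 74.5 and 83.3 in pye-1 +Fe, 343 and 380 in WT -Fe and 42.1 and 20.2 in WT +Fe, the last under the control level of its array. BHLH101 had a difference between pye-1 and WT without iron of 1.32 ± 0.28 (SE). CDI followed (r = 0.980), with 956 and 965, 292 and 275, 525 and 510, and 202 and 237 in the same order of groups, and a difference between pye-1 and WT without iron of 0.89 ± 0.13. AT5G02580 (r = 0.976), AT3G51670 of the patellin family (r = 0.972) and AT3G56360 (r = 0.968) were next, with differences between pye-1 and WT without iron of 0.53, 0.44 and 0.44. With iron, pye-1 minus WT was 1.43 for BHLH101, 0.38 for CDI, 0.07 for AT5G02580, 0.22 for AT3G51670 and 0.63 for AT3G56360. BHLH101 and AT3G56360 thus had the larger estimate with iron, and the others, like the 3 targets, without it.

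NAS4 alone had BHLH101 (r = 0.987), AT3G51670 (0.975), CDI (0.973), AT3G56360 (0.971) and the glycosyltransferase gene UGT73B4 (0.971) as its nearest named genes, and ZIF1 had UGT73B4 (0.982), AT3G17770 (0.980), CDI (0.976), BHLH101 (0.974) and AT3G56360 (0.972). For FRO3 they were AT5G02580 (0.985), AT3G61410 (0.981), AT1G74770 (0.981), which encodes a hemerythrin-domain ubiquitin ligase of the iron response, AT3G11420 (0.981) and AT3G12900 (0.976), an oxygenase of coumarin synthesis that lay under the control level on all 4 +Fe arrays. NAS4 and ZIF1 thus shared 4 of their 5 nearest named genes, and FRO3 shared no named gene of its 5 with either. Between pye-1 and WT without iron, the differences of these 5 genes near FRO3 were 0.53 for AT5G02580, 0.26 for AT3G61410, 0.50 for AT1G74770, 0.07 for AT3G11420 and 0.94 for AT3G12900, beside 0.85 for FRO3. Of the probe sets without a name here, ATH1.248719_at was closest to FRO3 (r = 0.992), ATH1.245296_at to NAS4 (0.981) and ATH1.257062_at to ZIF1 (0.983). The unnamed ATH1.248270_at was near both NAS4 (0.981) and FRO3 (0.984), at place 3 of all other tested probe sets for each. It was also the closest of all to the mean of the 3 targets (0.988). The lack of sharing between FRO3 and NAS4 therefore holds for named genes only.

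**Figure D5:**
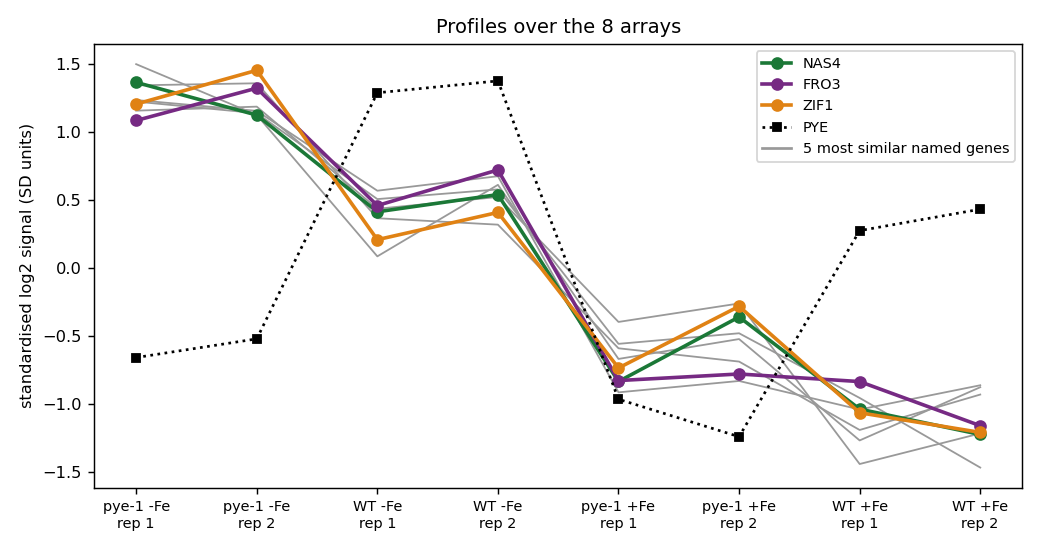
Log2 signal over the 8 arrays, each gene centred on its mean and divided by its SD, for NAS4, FRO3 and ZIF1 (coloured), their 5 most similar named genes (grey) and PYE (black squares, dotted). Lines join arrays only to guide the eye. The 3 targets and the grey genes are highest on the pye-1 -Fe arrays, where PYE is low.

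Other genes of the same pathways were read from 10 lists of 102 loci, 99 of them other than the 3 targets. Only 19 of these 99 have a probe set named here and 18 probe sets were tested. The other nicotianamine synthases and the other ferric chelate reductases have no probe set named here and are not analysed, and nor are markers of dividing cells. Of nicotianamine and ligand transport, AT1G51340, a relative of the citrate exporter FRD3, had differences of 0.09 for pye-1 against WT without iron and 0.32 and 0.08 for the iron response in pye-1 and WT. Of the methionine cycle that supplies S-adenosylmethionine, ARD4, an acireductone dioxygenase, had differences of 0.05, -0.07 and -0.27. None of these passed.

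Of vacuolar and zinc transport, 2 probe sets were tested and 1 rose without iron in both genotypes, AT3G58060, a manganese carrier of the vacuolar membrane, by 4.54 ± 0.43 in pye-1 (limma adjusted p = 3.84e-04) and 4.13 ± 0.43 in WT (adjusted p = 7.95e-04). Over all tested probe sets 0.848% were called higher without iron in pye-1 and 0.559% in WT. It read 294 and 293 in pye-1 -Fe, 7.31 and 21.8 in pye-1 +Fe, 269 and 303 in WT -Fe and 20.6 and 13.0 in WT +Fe, and 1 array of each +Fe group lay under its control level, so the size of these responses is uncertain. The AT3G58060 difference between pye-1 and WT without iron was 0.04, where that of ZIF1, of the same membrane, was 1.05, and the difference of the 2 was not tested. The zinc transporter gene ZIP9 had differences of 0.80 for pye-1 against WT without iron and 0.73 and 0.50 for the iron response in pye-1 and WT, none called. Of mitochondrial iron genes, the carriers AT2G30160 and AT1G07030 and the iron-sulfur assembly genes ISU1 and AT5G61220 were tested and none was called in any comparison. Their differences lay between -0.22 and 0.02 for pye-1 against WT without iron, and the median over the 4 was -0.12, against -0.03 over all tested probe sets. Their iron responses were -0.13 to 0.02 in pye-1 and 0.05 to 0.20 in WT. The bHLH genes listed with PYE, namely ILR3, bHLH104, bHLH115 and bHLH34, had differences of -0.14 to 0.08 between pye-1 and WT without iron, none called.

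Of the 6 protein-coding genes that flank the 3 targets in the gene table, 2 have a probe set named here, and both flank FRO3. LPR1, a multicopper oxidase of root phosphate sensing, read 105 and 141 in pye-1 -Fe against 189 and 162 in WT -Fe (difference -0.53 ± 0.21, limma adjusted p = 0.616). AT1G23030 read 477 and 384 in pye-1 -Fe against 446 and 365 in WT -Fe (0.09 ± 0.16, adjusted p = 0.981). The iron responses of LPR1 and AT1G23030 were -0.23 and 0.18 in pye-1 and -0.02 and -0.23 in WT, none called, beside 2.77 and 2.19 for FRO3.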

How the data were processed

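The authors deposited signal intensities of 8 Affymetrix ATH1 arrays hybridised with biotin-labelled RNA, made with MAS5 per the submitters' processing notes. Its version was not given in the sources used here. Per array, the trimmed mean was 250.02 with 2% trimmed at each end. No detection calls were used. Log2 of each value was taken without a pseudocount, and 64 maker controls and the 30% of the remaining 22746 probe sets with the lowest mean log2 signal were left out, which kept 15922 and all 3 targets. The test was that of limma 3.58.1, run in R 4.3.3 (1 mean per group over 8 arrays, eBayes with an intensity trend, 4 residual and 6.32 prior degrees of freedom), with Benjamini-Hochberg adjustment over all 15922 within a comparison and a threshold of 0.05. The script was tested on simulated data. With 2 arrays a group the smallest p of an exact permutation test is 0.333, so none was run. The number of arrays limits the precision.

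Replicate numbers are shared by the 4 groups. Same-numbered arrays deviated from their group means together (r = 0.178 to 0.302 over the 6 pairs of groups), so the number was fitted as a block in an alternative. The block result is given where it changes a call that the text reports. For the genes picked by correlation no call is reported, and the block, which changed some of their calls, is left out. Named genes are the 3 targets, PYE, the members of 10 gene lists with a named probe set, and the 5 named probe sets closest to each target and to their mean by Pearson correlation. The flanking genes were added after the other values were seen. The 3 genes, the lists and the control level were chosen with earlier results of these data known. Of 22746 probe sets, 13513 name 1 gene in the platform annotation, updated to a TAIR10.1 gene table. No coordinates or sequences are given, as the sources used here name no build for the array.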

Additional observations from a re-analysis of the deposited data

Results flagged for a closer look

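AT1G07030, a mitochondrial iron carrier gene of the mitoferrin type, had opposite iron responses in the 2 genotypes on every array pair: -0.12 and -0.14 in replicates 1 and 2 of pye-1, against 0.19 and 0.20 in WT. The difference of the 2 responses was -0.33 ± 0.24 and did not pass (limma adjusted p = 0.935). The share of all tested probe sets with such a pattern of signs is not given here, so the pattern is not read as a result. Groups of 2 arrays are too small to look for a single outlying array.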

How the results depend on the processing

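Over all comparisons and alternatives, 239 of 252 values of NAS4, FRO3 and ZIF1 kept their direction and their side of the threshold. For pye-1 against WT without iron, NAS4 passed at 0.95 with the replicate block (adjusted p = 0.0193) and with only the arrays compared (0.0409), and ran from 0.80 to 1.10 without 1 array. FRO3 passed at 0.85 with the replicate block. ZIF1 did not pass at 1.05 without the intensity trend (adjusted p = 0.155) and ran from 0.92 to 1.18 without 1 array. The NAS4 interaction ran from -0.0026 to 0.58 without 1 array and crossed 0 without pye-1 +Fe replicate 1. The block changed no other call of the 3 genes. The cause of these changes was not tested, and a lone array left in a group is assumed to vary like the others. Quantile normalization, median centring, a floor at the control level, log2(signal + 16) and both other filters changed no call of the 3 genes. Probe sets called were 74 for pye-1 against WT without iron, and 273 with the replicate block, 26 without the trend and 20 to 88 without 1 array. With iron the count was 10, and 55 with the block, 5 with 50% left out as dim, 3 with only the arrays compared and 5 to 17 without 1 array. For the iron response of pye-1 it was 167, and 422, 99 without the trend and 87 to 154, and for that of WT 155, and 485, 90 and 83 to 173, in the same order. For the interaction it was 14, and 56 with the block, 8 with no filter or with 50% left out, 9 with quantile normalization and 0 to 10 without 1 array. By limma it was 0 without the trend (962 at an unadjusted p under 0.05) and 0 without pye-1 -Fe replicate 1 or 2 or WT -Fe replicate 1 (929, 823 and 606), with no other tool run.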
